A study of Mus musculus with 3 samples.

Results

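The sites described here are matches to the seed of the miR-17 family in mouse 3′UTRs that lay under Ago2 HITS‐clip peaks of N2A cells, a mouse neuroblastoma line. HITS‐clip crosslinks RNA to protein with ultraviolet light, precipitates Ago2 with the RNA it holds and sequences that RNA. The members were chosen by their peak coverage. A member is a 3′UTR stretch of at least 8 nt that is covered on the strand of the gene by peaks of at least 2 of the 3 libraries and that holds a match to positions 2 to 8 of miR‐17‐5p. Among 30345 such stretches in 7274 genes, 542 held a match, with 546 matches in 497 genes. The longest 3′UTRs of 21028 protein-coding genes held 2873 matches in all, so that 2327 matches were not members. All 3 libraries came from untreated N2A cells under basal conditions and formed 1 group, numbered replicates 1 to 3. The cells were crosslinked at 400 and then at 200 mJ per square cm at 80% confluency, and Ago2 was precipitated with the antibody clone 2D4. No control precipitation was used here. Nothing in the labels says that the libraries came from separate cultures, so the spread between them may be technical.

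The Argonaute protein Ago2 carries a miRNA and is guided by it to mRNAs, most often through pairing of the seed near the 5′ end of the miRNA with the 3′UTR. The mRNA is then translated less or decays sooner through TNRC6 proteins and the CCR4-NOT deadenylase. The miR-17 family is made from 3 related polycistronic miRNA genes. It is known for promoting the passage from G1 to S phase and for restraining TGF-beta signalling, and it is abundant in proliferating and neuronal progenitor cells and in neuroblastoma.

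The mature sequences of the family are shown because the members were found with the part in capitals, positions 2 to 8, which all 6 share. The sequences are those of RefSeq, 5′ to 3′.
miR-17-5p: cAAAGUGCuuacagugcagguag
miR-20a-5p: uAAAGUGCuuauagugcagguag
miR-20b-5p: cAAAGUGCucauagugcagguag
miR-93-5p: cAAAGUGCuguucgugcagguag
miR-106a-5p: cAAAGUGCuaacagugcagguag
miR-106b-5p: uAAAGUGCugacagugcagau
The same seed also belongs to miR-6383, so that 7 of 1678 mature mouse miRNAs of the RefSeq table would match the same sites. A peak over a match cannot tell these miRNAs apart. The hairpins of the family were under peaks in these libraries, counting any overlap. The hairpins of Mir17 (chr14:115043671-115043754), Mir20a (chr14:115044157-115044263), Mir20b (chrX:52742113-52742192) and Mir93 (chr5:138165523-138165610) had a peak in all 3 libraries. Those of Mir106a (chrX:52742503-52742567) and Mir106b (chr5:138165737-138165818) had a peak in replicates 1 and 2 and 0 peaks in replicate 3. With 30 nt taken off each peak end, replicate 2 had 0 peaks over at least 15 nt of the mature miR-20b-5p and miR-106a-5p. It had 1 over each of the others.

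The sites below are shown because all 3 libraries covered them in genes that are known targets of the family, in other genes of the miRNA pathway, or at 2 places of 1 3′UTR. Each window of mm10 reads 5′ to 3′ along the mRNA, with the match in capitals. A capital A as the last letter lies opposite miRNA position 1 and makes the site an 8mer, and other sites are of the 7mer-m8 type.
Tgfbr2, minus strand, chr9:116090073-116090096: acagccaataacgtttGCACTTTA
Txnip, plus strand, chr3:96561225-96561248: taaggtgatgttcttaGCACTTTA
Cdkn1a, plus strand, chr17:29099813-29099836: tcctcagacctgaataGCACTTTg
Rbl1, minus strand, chr2:157147476-157147499: cctttgcctgatcaaaGCACTTTt
App, minus strand, chr16:84954595-84954618: tccctgttcatcataaGCACTTTt
Trp53inp1, plus strand, chr4:11174211-11174234: cagaatgaacagcacaGCACTTTg
Ago2, minus strand, chr15:73096834-73096857: gaagctcagagctgttGCACTTTc
Tnrc6c, plus strand, chr11:117761125-117761148: agttctatcatgaaggGCACTTTt
Cnot4, minus strand, chr6:35045650-35045673: tctcatttgcacatttGCACTTTt
Ankrd52, plus strand, chr10:128390784-128390807: agtctaaacatttaggGCACTTTA
Ankrd52, plus strand, chr10:128391431-128391454: ctggccccctcaccacGCACTTTA
Zfp367, minus strand, chr13:64135000-64135023: gcagttctcacaggaaGCACTTTg
Zfp367, minus strand, chr13:64135148-64135171: ggggtgagagagaattGCACTTTt
The 4 sites in Tgfbr2, Txnip and Ankrd52 are 8mers, and the other 9 lack the final A.

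The libraries differed in how much 3′UTR they covered. Peaks of replicate 1 covered 6.64% of the 31151534 nt of 3′UTR, those of replicate 2 17.6% and those of replicate 3 17.4%, although replicate 1 had 711377 peaks, replicate 2 498071 and replicate 3 829936. Replicate 1 thus stands apart, and the main counts, shares and odds ratios of the miR-17 sites are also given without it. Numbers of reads are unknown, since only peaks were used, and 98.9 to 99.6% of peaks had the highest score of 60, so that peaks could not be ranked. Of the 546 member matches, 369 were covered by replicates 2 and 3 alone, 47 by replicates 1 and 2, 33 by replicates 1 and 3 and 97 by all 3. Without replicate 1, 462 stretches in 422 genes met the rule with both remaining libraries, without replicate 2 130 in 126 genes, and without replicate 3 144 in 141 genes. Outside the rule, 649 matches were covered in 1 library and 1678 in none. A match with no peak may lie in a gene with little mRNA in N2A cells, and mRNA levels were not measured here.

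The miR-17 seed was among the most covered seeds of all, a description only, since the rule used this measure. Of the 2873 matches, 19.0% were members (Wilson 95% interval 17.6 to 20.5%, counting error only). The share was 16.2% without replicate 1, 4.52% without replicate 2, 5.01% without replicate 3 and 8.04% with peaks trimmed by 30 nt on each side. In single libraries, 9.47% of matches were covered in replicate 1, 29.4% in replicate 2 and 25.1% in replicate 3 (21.3% ± 10.5, SD, n = 3). Replicate 1 was the lowest and replicate 2 the highest. Peaks on the opposite strand covered 0.731% of the same matches in at least 2 libraries (21 matches). Among 1371 seeds of the mouse miRNA table with at least 200 matches, the covered share ranged from 3.61 to 19.9% with a median of 8.15%, and only 1 seed lay above miR-17. That was the seed of miR-25, miR-32 and miR-92a, at 19.9% (17.96 to 22.0%), an interval that overlaps that of miR-17. By library, 8 seeds lay above miR-17 in replicate 1, 1 in replicate 2 and 3 in replicate 3. Among the 351 seeds whose match has 4 A or T letters, as that of miR-17 has, the median was 9.32% and again 1 seed lay above it. In all 3 libraries, 3.38% of miR-17 matches were covered, the rank of 15 among the 1371 seeds, with miR-92a at 4.28%. The seeds next below miR-17 in at least 2 libraries were those of let-7c-1-3p at 18.8%, miR-3618-3p at 18.6% and let-7a-1-3p at 18.4%, with intervals that overlap that of miR-17. miR-19b-3p, from the same primary transcript, had 15.5% (14.2 to 16.8%) and let-7a-5p 10.6% (9.42 to 12.0%).

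**Figure D1:**
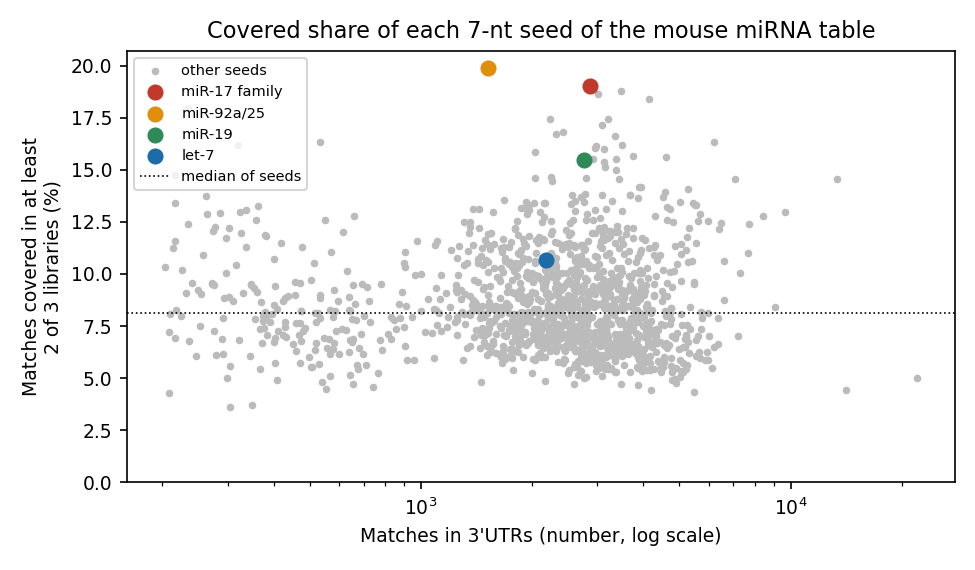
Share of the matches of each of 1371 miRNA seeds that were covered by peaks of at least 2 of 3 libraries (vertical axis, percent) against its number of 3′UTR matches (horizontal axis, log scale), each point being a seed. The miR-17 family lies at 19.0%, next to miR-92a at 19.9%, above miR-19 at 15.5%, let-7 at 10.6% and the dotted median of 8.15%.

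Coverage was higher at the match than beside it in all 3 libraries. This was measured over all matches with enough 3′UTR around them, 2848, and not over the members. In replicate 1, 9.90% of matches were covered at the site and on average 8.22% at 100 to 200 nt on both sides. The values were 30.3% and 24.4% in replicate 2 and 25.7% and 21.8% in replicate 3. The site thus exceeded its flanks by 1.68, 5.94 and 3.85 percentage points, 3.82 ± 2.13 (SD, n = 3), higher in 3 of 3 libraries, with an exact sign-flip permutation p = 0.25 (two-sided), the smallest that 3 libraries can give. On the opposite strand the same difference was 0.26 ± 0.30 points. Flanks there were covered at only 3.01, 3.30 and 3.16% in replicates 1, 2 and 3, so that the points of the strands are not on 1 scale. By the same measure the site exceeded its flanks by 4.44 points for miR-92a-3p, 2.29 for miR-19b-3p and 1.81 for let-7a-5p.

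**Figure D2:**
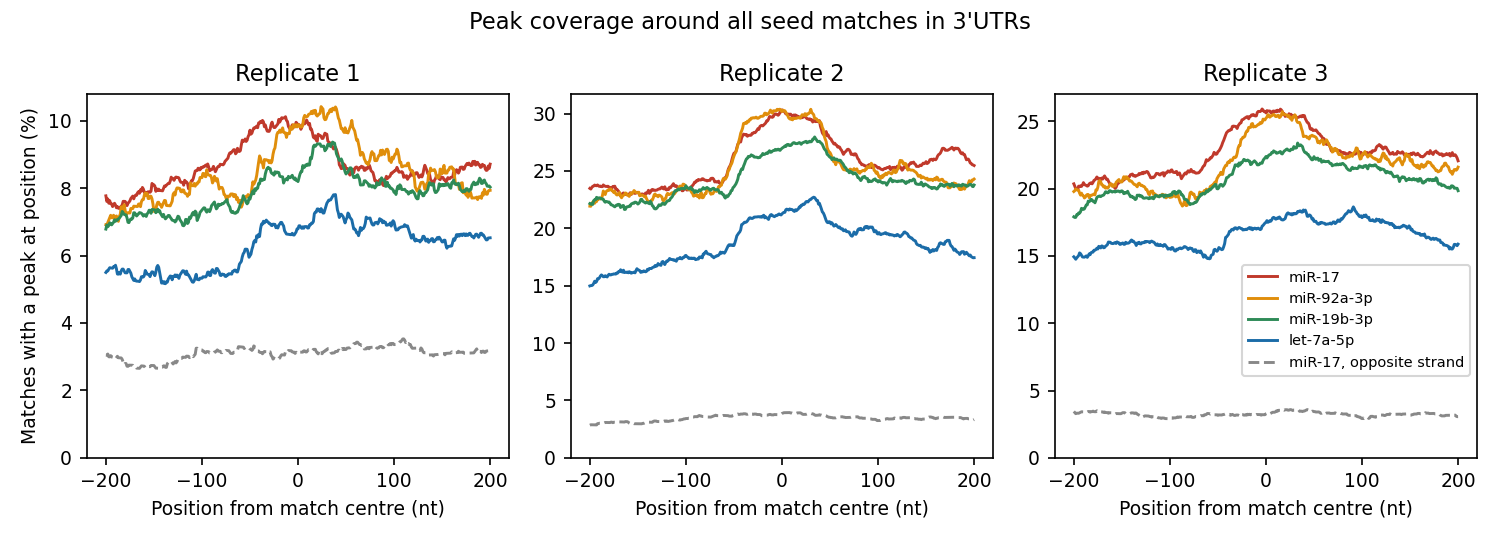
Percentage of 3′UTR seed matches with a peak at each position from 200 nt before to 200 nt after the centre of the match, in 1 panel per library with its own vertical scale, for 4 seeds and for miR-17 with peaks of the opposite strand (dashed). In each library the miR-17 line rises to a broad maximum around the match, up to about the 9.90, 30.3 and 25.7% measured at the site, and the opposite strand lies at 3.13, 3.90 and 3.23% there.

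A match may lie anywhere in its stretch, but by the rule it lies inside it, so that no centring is read from its place. The match centre was at a median of -1.5 nt from the middle of its stretch, counted along the mRNA with quartiles of -26.5 and 24 nt. In the separate peaks the median place of the match was 3.5 nt from the middle in replicate 1 and -3 nt in replicates 2 and 3. The peaks over members ranged in width from 79 nt to 7707, 13239 and 10241 nt in replicates 1, 2 and 3. Stretches were 120.5 nt long at the median (15 to 2923 nt). The peaks appear to have been padded by 30 nt on each side, and of the members under a peak the match lay inside the unpadded part in 45.2% of cases in replicate 1, 63.5% in replicate 2 and 57.5% in replicate 3. With peaks trimmed by that padding 230 stretches remained by the rule.

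Site types differ in the bases that flank the 6-nt core of the match, and the rule took only those that pair with positions 2 to 8. Over all matches, 8mers were covered most. In replicate 1, 11.9% of 766 8mers were covered, 8.73% of 2107 7mer-m8 sites, 8.41% of 2093 7mer-A1 sites, which lack the pair at position 8, and 6.05% of 8210 6mers. In replicate 2 the same shares were 34.2, 27.9, 19.97 and 18.2%. In replicate 3 they were 29.0, 23.8, 20.4 and 17.4%. The order was the same in all 3 libraries, although the step from 7mer-m8 to 7mer-A1 in replicate 1 was small. In at least 2 libraries the core was covered at 23.1% of 8mers (20.3 to 26.2%), 17.8% of 7mer-m8 sites (16.2 to 19.4%), 12.8% of 7mer-A1 sites (11.4 to 14.3%) and 10.5% of 6mers (9.83 to 11.2%). These intervals do not overlap, but they hold counting error only and take no account of the 3′UTR of each site. Among the members, 177 of 546 matches (32.4%) were 8mers, against 26.7% of all matches and 35.1% of the 97 members covered in all 3 libraries.

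**Figure D3:**
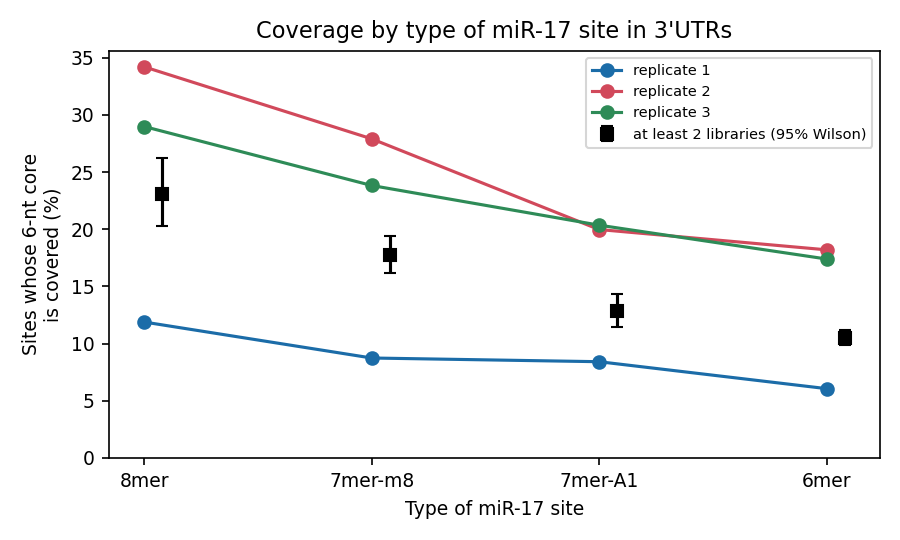
Share of sites whose 6-nt core was under a peak (vertical axis, percent) for the 4 types of miR-17 site in 3′UTRs, by library (coloured points) and in at least 2 libraries (black squares with Wilson 95% intervals). Each line falls from 8mer to 6mer, from 34.2 to 18.2% in replicate 2 and from 11.9 to 6.05% in replicate 1.

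Sites of the same 3′UTR share their mRNA unless transcripts end early, so members were compared with the other matches beside them. There were 76 3′UTRs with both kinds, holding 83 members and 97 other matches, of which 52 were covered in 1 library and 45 in none. Each of 5 features that the rule did not use was tested in a conditional logistic regression with the 3′UTR as the stratum, and p-values were adjusted by Benjamini-Hochberg over the 5. The features were chosen with earlier results of these data known, so that their p-values are not those of features fixed in advance. With a final A the odds of being a member were 2.28 times as high (95% interval 1.09 to 4.80, adjusted p = 0.0444, n = 180 sites). Of these 83 members 25 (30.1%) were 8mers, and of the 97 other matches 16 (16.5%). With A or T content of the 30 nt on each side the odds were 1.79 times as high per 10 percentage points (1.23 to 2.62, adjusted p = 0.0132, n = 180), and its median was 61.7% at the 83 members against 58.3% at the other matches. The odds were 0.824 times as high per doubling of the distance to the nearer end of the 3′UTR (0.689 to 0.987, adjusted p = 0.0444, n = 180). Pairing of miRNA positions 13 to 16, which can supplement the seed, went with lower odds, 0.593 per base pair (0.366 to 0.961, adjusted p = 0.0444, n = 180). A seed match of another of 8 listed miRNAs 8 to 40 nt away did not pass the test (2.88, 0.961 to 8.61, adjusted p = 0.0590, n = 180) and was present beside 12 of the 83 members (14.5%) and 6 of the 97 other matches (6.19%). With all 5 features in 1 model, A or T content still passed (1.86, adjusted p = 0.0145, n = 180), while the final A (2.03, adjusted p = 0.147, n = 180), distance (0.848, adjusted p = 0.183, n = 180) and supplementary pairing (0.772, adjusted p = 0.347, n = 180) lost their calls. Without replicate 1, 2 or 3 in turn the final A (1.85, 4.85 and 3.65) and distance (0.811, 0.949 and 0.984) lost their calls each time, and A or T content without replicate 1 (1.52) or 2 (1.89). None of the 5 features passed with peaks of 86 to 200 nt, with trimmed peaks or with coverage in all 3 libraries, where the odds ratio of A or T content was 1.61 (adjusted p = 0.0802, n = 143 sites), 1.44 (adjusted p = 0.404, n = 96) and 1.73 (adjusted p = 0.282, n = 51).

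A or T content passed in each library, and no other feature did. By the coverage of a single library, its odds ratio was 2.20 in replicate 1 (adjusted p = 0.00771, n = 127 sites), 1.56 in replicate 2 (adjusted p = 0.0384, n = 225) and 1.47 in replicate 3 (adjusted p = 0.0386, n = 197). The odds ratio of the final A was 2.19, 1.41 and 2.45, and it passed in replicate 3 alone (adjusted p = 0.1503, 0.316 and 0.0386, n = 127, n = 225 and n = 197). That of supplementary pairing was 1.06, 0.579 and 0.489, and it passed in replicates 2 and 3 (adjusted p = 0.861, 0.0483 and 0.0251, over the same sites as above, n = 127, n = 225 and n = 197). That of distance was 1.02, 0.836 and 0.843 and passed in none (adjusted p = 0.861, 0.0524 and 0.0842, n = 127, n = 225 and n = 197). That of the nearby seed match was 0.520, 1.74 and 4.15 and passed in replicate 3 alone (adjusted p = 0.717, 0.354 and 0.0452, n = 127, n = 225 and n = 197). Differences between the libraries were not tested. Without replicate 1, which leaves the sites of replicates 2 and 3, supplementary pairing (0.533) and the nearby seed match (7.34) passed, each with adjusted p = 0.0484 (n = 148 sites), and the other 3 features did not. Without replicate 3 supplementary pairing and the nearby seed match changed direction, to 1.04 and 0.693. Without replicate 2 supplementary pairing did not pass (0.811).

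The same 5 fits over 146 seeds show how common such differences are, with p-values adjusted over the seeds. A or T content passed with an odds ratio above 1 for 90.4% of seeds, with a median of 1.79, the same as for miR-17. This feature was therefore shared by nearly all seeds. A final A passed for 0.685% of seeds (1 of 146). The miR-17 value of 2.28 was exceeded by 7 seeds and had an adjusted p = 0.288 over seeds (n = 180 sites), with a median of 1.16 over all. A shorter distance to the end of the 3′UTR passed for 2.05% of seeds, with 17 seeds below miR-17, whose own adjusted p was 0.226 over seeds (n = 180 sites). Supplementary pairing below 1 and the nearby match above 1 passed for 0% each, although the nearby match was above 1 for 110 of 146 seeds. Only 1 seed had a lower odds ratio of supplementary pairing than miR-17, which had 180 sites in its fit, fewer than the 200 asked of each other seed.

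**Figure D4:**
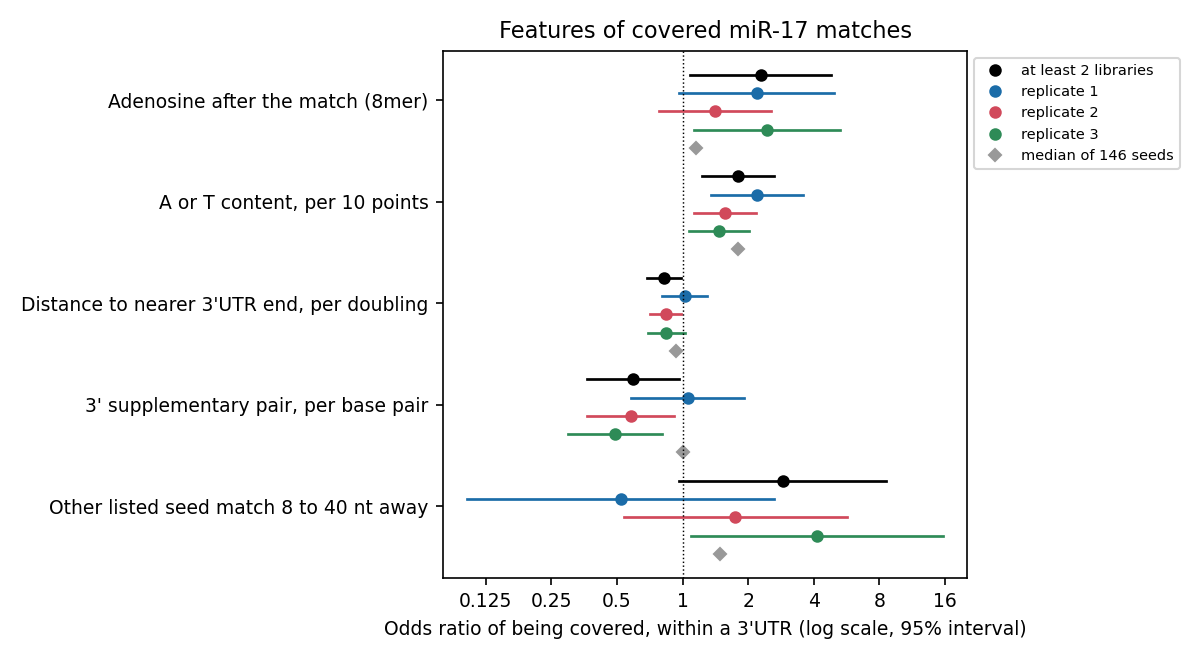
Odds ratios of coverage within a 3′UTR (horizontal log axis, bars are 95% intervals) for 5 features of miR-17 matches, with membership in at least 2 libraries in black, each library alone in colour and the median of 146 seeds as a grey diamond. A or T content lies above 1 in all 4 fits, at 1.47 to 2.20, with the seed median at 1.79, while the value of supplementary pairing ranges from 0.489 to 1.06.

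The single bases next to the match were counted as a description. Just before the match, C was rare in members (4.22%), other matches in the same 3′UTRs (3.09%) and all matches (3.48%), a place where C would form a CpG with the first base of the match. T was found there in 42.2% of members and 37.0% of all matches, and G in 16.7% and 21.04%. At 8 nt before the match, G was found in 14.8% of members and 20.4% of all matches, and T in 36.4% and 31.5%. Just after the match, G was found in 24.4% of members and 28.1% of all matches. Members lay at a median of 956.5 nt from the stop codon (0 to 21794 nt), those in all 3 libraries at 803 nt and all matches at 1024 nt. Within 15 nt of the stop codon lay 7 members (1.28%) and 30 of all matches (1.04%).

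Sites covered by 2 libraries were also looked up in the library that had not chosen them. Replicate 1 covered 97 of the 466 sites of the other 2 libraries, 20.8% (17.4 to 24.7%), replicate 2 97 of 130, 74.6% (66.5 to 81.3%), and replicate 3 97 of 144, 67.4% (59.3 to 74.5%). The mean was 54.3% ± 29.2 (SD, n = 3). All 3 shares count the same 97 sites, so that they are not independent and their SD does not measure reproducibility. The medians over other seeds with at least 20 such sites were 17.98, 60.1 and 59.0%. miR-17 was above the median in each library, with 359, 44 and 206 seeds above it among 1338, 1179 and 1180. miR-92a-3p had 25.3, 82.3 and 67.7%.

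The share of genes with a member was 2.36% of all genes with a 3′UTR and 20.2% of the 2458 with a match. Among 23 genes listed as known targets of the family, 22 had a match and 14 (60.9%) had a member. The list was drawn up with earlier results of these data known, so that the count describes the list and supports nothing. Of its 32 matches, 6 were covered in 3 libraries, 12 in 2, 7 in 1 and 7 in none.

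**Figure D5:**
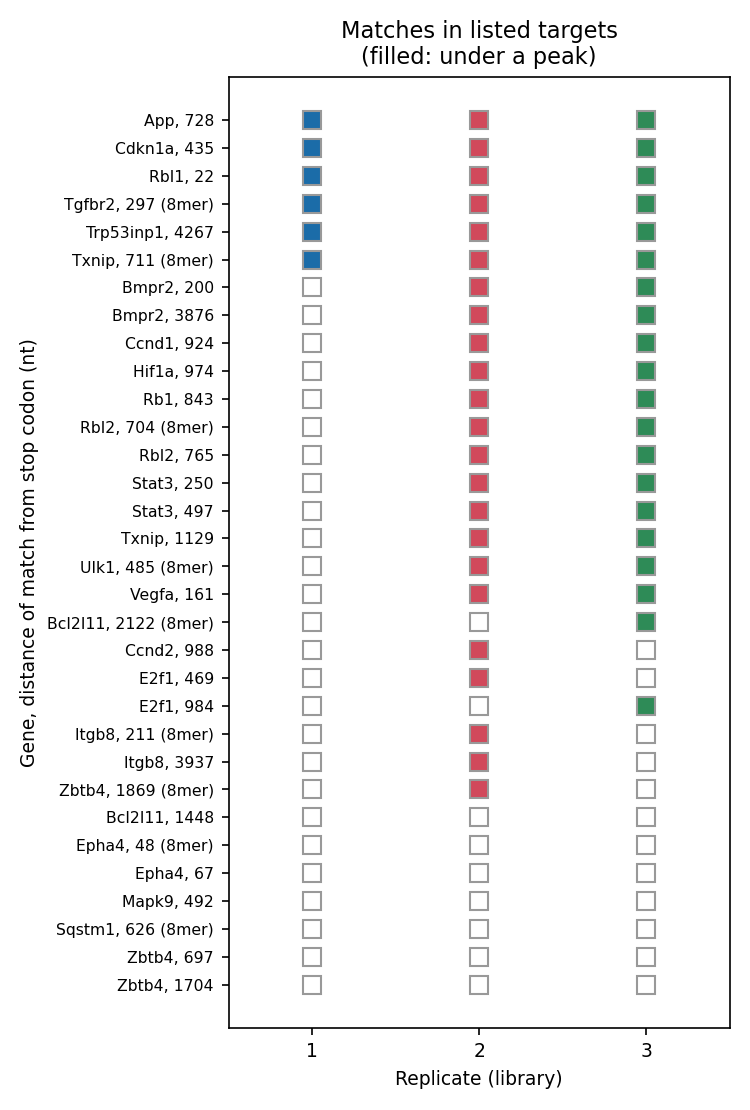
Peaks over each of the 32 miR-17 seed matches in 22 listed target genes (rows, with the distance of the match from the stop codon in nt), in replicates 1 to 3 (columns), where a filled square means that the match lay under a peak. Replicate 1 fills 6 rows, all of them also filled in replicates 2 and 3, and 7 rows are empty in all libraries.

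Listed targets that regulate the cell cycle were covered at several sites. Cdkn1a, an inhibitor of cyclin-dependent kinases, had its site 435 nt after the stop codon under peaks of 99, 125 and 107 nt in replicates 1, 2 and 3. Rbl1, a pocket protein that binds E2F factors, had a site only 22 nt after the stop codon under a peak in each library, with the match 8, 8.5 and 43 nt from the middle, and the part covered in all 3 libraries was 36 nt. Its relatives Rb1 and Rbl2 were covered in replicates 2 and 3, Rb1 at 843 nt and Rbl2 at 704 and 765 nt. Both Rbl2 sites lay in a single stretch of 119 nt, 61 nt apart, the shortest distance between neighbouring members. Ccnd1, a D-type cyclin that drives the cell cycle, had its site under peaks of 127 and 109 nt in replicates 2 and 3. Its relative Ccnd2 had a peak at its match in replicate 2 alone. E2f1, the classic target of the family among E2F factors, had matches at 469 and 984 nt, the first under a peak of replicate 2 alone and the second of replicate 3 alone, so that neither was a member.

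The other covered targets included receptors, transcription factors and stress proteins. Tgfbr2, the type II receptor of TGF-beta, had an 8mer under peaks of 96, 114 and 94 nt, with the match 2.5, -6.5 and -1.5 nt from the middle of the peak. Its place in the peaks thus differed by at most 9 nt between libraries. Trp53inp1, a stress protein induced by Trp53, had a site 4267 nt after the stop codon and 146 nt before the end of the 3′UTR, with peaks of 104, 103 and 95 nt centred 3.5, 3 and 0 nt from it. Txnip, an inhibitor of thioredoxin, had 2 members, an 8mer covered in all 3 libraries and a 7mer-m8 site 1129 nt after the stop codon covered in replicates 2 and 3. App, the amyloid precursor protein, had peaks of 88, 142 and 326 nt over its site. Bmpr2, a BMP receptor, and Stat3, a transcription factor of cytokine signalling, each had 2 sites covered in replicates 2 and 3 and uncovered in replicate 1. Hif1a, the oxygen-regulated subunit of HIF, Vegfa, a vascular growth factor, and Ulk1, a kinase that starts autophagy, had 1 site each with the same pattern.

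Besides Ccnd2 and E2f1, the listed targets with a match and without a member were Bcl2l11, Mapk9, Zbtb4, Sqstm1, Epha4 and Itgb8. The 8mers of Sqstm1 and Epha4 had no peak, and the 8mers of Bcl2l11, Zbtb4 and Itgb8 had a peak in 1 library each. Mylip had no match.

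The listed TGF-beta and BMP signalling genes with a match all had a member. Of 26 listed genes 9 had a match and all 9 had a member (34.6% of the list, against 2.36% of all genes and 20.2% of genes with a match). This list too was drawn up with earlier results known, and the count supports nothing. Besides the receptors Tgfbr2 and Bmpr2 these included Smad5, which carries BMP signals, Smad6, which inhibits them, and Ski and Skil, corepressors of SMAD proteins. All of these but Tgfbr2 were covered in replicates 2 and 3 and not in replicate 1. The sites of Smad5, Smad6, Ski and Skil were of the 7mer-m8 type. The remaining 3 genes were counted and are not named.

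Genes of the miRNA pathway itself also held members. Of 26 listed genes for miRNA function and mRNA decay, 11 had a match and 9 had a member, 34.6% of the list and 9 of the 11 with a match, against 2.36% of all genes and 20.2% of genes with a match. As with the lists above, this one was drawn up with earlier results known, and the count supports nothing. Ago2, the protein precipitated here, had its site 10066 nt into a 3′UTR of 11064 nt, under peaks of 95, 165 and 274 nt. Tnrc6c, a partner of Argonaute, had peaks of 80, 200 and 107 nt, and Cnot4, a ubiquitin ligase of the CCR4-NOT complex, of 100, 324 and 146 nt. These 3 genes were covered in all libraries. Ago3, Tnrc6b, and the deadenylase genes Cnot6, Cnot6l and Cnot7 were covered in replicates 2 and 3 alone, and Tnrc6a in replicates 1 and 2. Cnot6l and Cnot7 held 8mers. Ago1 and the decapping enzyme gene Dcp2 had a match and no member.

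The other lists held fewer members, and their counts are read against the same 2.36% of all genes and 20.2% of genes with a match. For autophagy, PI3-kinase signalling and the cytoskeleton, 2 of 8, 1 of 6 and 3 of 9 genes with a match had a member, so that these counts lay near the background. Of 29 G1/S cell cycle genes, 13 had a match and 7 (24.1%) a member, which adds E2f3, a transcription factor of S-phase entry, and Wee1, a kinase that holds back mitosis, both with 8mers, to the targets above. Of 31 autophagy genes 8 had a match, and only Ulk1 and Atg16l1 (6.45%) had a member, each an 8mer. Of 20 genes of PI3-kinase, AKT and mTOR signalling 6 had a match, and 1 (5%), Phlpp2, a phosphatase of AKT, had a member. Of 32 genes of the neuronal cytoskeleton and growth cone 9 had a match and 3 (9.38%) a member. These were Dpysl2, which binds tubulin, Limk1, a kinase of cofilin, and Sema4b, a semaphorin covered in replicates 1 and 3. Lists overlap and were drawn up with earlier results known. None was tested against other genes, so that these counts too support nothing.

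Among 34 8mer members covered in all 3 libraries, those with the shortest part common to all are named. A short common part can come from narrow peaks or from peaks shifted against each other. The windows of the 3 shortest are shown.
Pdia6, plus strand, chr12:17284716-17284739: aaagactcaggactgaGCACTTTA
Dusp2, plus strand, chr2:127338291-127338314: aggggcgttggaaacaGCACTTTA
Cep97, minus strand, chr16:55904957-55904980: atattaaaaggcatatGCACTTTA
The common part was 37 nt in Pdia6, a protein disulfide isomerase, 42 nt in Dusp2, a phosphatase of MAP kinases, and 55 nt in Cep97, a centrosomal protein. In Pdia6 the peaks were 82, 83 and 267 nt wide, with the match -23.5, 22 and -66 nt from their middles, and the match lay only 32 nt before the annotated end of the 3′UTR. In Dusp2 the match lay 28, -17.5 and -40.5 nt from the middles, so that the peaks of both genes were shifted against each other. Next came Cald1, caldesmon, at 58 nt, Znfx1, a helicase with zinc fingers, at 67 nt, Ankrd52, a regulatory subunit of protein phosphatase complexes, at 68 nt, and Cwc25, a splicing factor, and Trip11, a Golgi protein, at 70 nt. Zfp707, Fbxo25, Pkd1, Rabgap1l, Itga4, Gcnt4 and Klhl42 followed, at 73 to 84 nt. Peaks agreed closely in Gcnt4, with the match -9.5, -4 and 7 nt from the middle, and in Itga4, an integrin chain, with 104, 82 and 96 nt and -1.5, 1.5 and -5.5 nt. They agreed poorly in Cwc25, where the peak of replicate 1 was 2799 nt wide, in Trip11, where that of replicate 2 was 1667 nt, in Klhl42, where that of replicate 1 was 1019 nt, and in Fbxo25, where that of replicate 3 was 878 nt.

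Several 3′UTRs held more than 1 member. There were 47 genes with at least 2 members and 2 with 3, and neighbouring members were 61 to 7017 nt apart with a median of 649 nt. Only 2 of 49 neighbouring pairs were under 100 nt apart. In 3 genes at least 2 members were covered in all 3 libraries. Ankrd52 had its 8mers 78 and 725 nt after the stop codon, each with 68 nt common to all libraries, and a 7mer-m8 site at 2678 nt covered in replicates 2 and 3. The peaks over its first site were 80, 84 and 114 nt wide and over the second 94, 157 and 107 nt. Zfp367, a zinc finger protein, had sites at 158 and 306 nt in a single stretch of 687 nt. Replicate 2 covered both with 1 peak of 452 nt, whereas replicates 1 and 3 had a separate peak at each. For 380 of the 497 genes the member was the only match of the 3′UTR.

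At the edge of the rule the members were few. The shortest stretches were 15 nt in Nt5dc2, 17 nt in Ogfrl1 and 19 nt in Tmem50b, all covered in replicates 2 and 3 alone. In Ogfrl1 and Tmem50b the ends of 1 peak of each library overlapped there, and in Nt5dc2 the 3′UTR began within the peaks. Only 3 members lay in stretches under 20 nt. Just outside the rule, 45 matches were partly covered by at least 2 libraries, among them those of Apbb2, Csnk1g1 and Elf4, each with 6 of the 7 nt. No match lay whole in a stretch under 8 nt.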

How the data were processed

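The authors deposited 1 table of peaks called in each Ago2 HITS‐clip library of N2A cells, with chromosome, start, stop, strand and a score of unstated scale. The submitters' processing notes name FastQC, cutadapt, STAR and the build mm10. The peak caller and its threshold are not given in the sources used here. Starts were read as counted from 0 and stops from 1. No other column of values was present (0), and 1021 peaks off the 21 nuclear chromosomes were not used.

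The longest spliced 3′UTR of each protein-coding gene, without the stop codon, came from GENCODE M21 and its sequence from GRCm38.p6. A match annotated in several genes was counted once, for the gene with the longest 3′UTR (15 member matches removed). Members, gene lists and features were chosen with earlier results of these data known. Genes were named as listed targets, as genes with at least 2 members in all 3 libraries, as the 15 genes whose 8mer had the shortest stretch common to all libraries, as other list genes covered in all 3, and as the 3 members nearest the edge of the rule on each side. Further list members are named to complete their list, and 1 listed gene is not reported here. Sites of chromosome 18 are counted and not named. The listed neighbouring miRNAs were let-7a-5p, miR-19b-3p, miR-92a-3p, miR-9-5p, miR-15a-5p, miR-30a-5p, miR-23a-3p and miR-21a-5p, and miR-124-3p was not used here.

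Conditional logistic regression used survival 3.8.3 in R 4.3.3, with two-sided Wald p-values adjusted by Benjamini-Hochberg and a threshold of 0.05. It was tested on simulated data. Shares have Wilson 95% intervals, and read depth is unknown. Alternatives were the peaks used, the number of libraries, the stretch length, each replicate left out, the fitted sites and the windows.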

Additional observations from a re-analysis of the deposited data

How the results depend on the processing

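No paired analysis was possible because only 1 group was sampled. The number of member stretches, 542 as reported, was 230 with peaks trimmed by 30 nt, 97 when all 3 libraries had to cover the stretch, and 130 to 462 without 1 replicate, with genes at 223, 94 and 126 to 422 in place of 497. Peaks of 86 to 200 nt, peaks at the highest score, exons taken one by one and stretches of at least 20 nt kept both within 1.5 times. The covered share of 19.0% became 13.3% with peaks of 86 to 200 nt, 8.04% with trimmed peaks, 17.5% with peaks at the highest score, 3.38% in all 3 libraries and 4.52 to 16.2% without 1 replicate. The excess of the site over its flanks was 2.76 to 4.89 points without 1 replicate and above 0 in the other alternatives. The share covered by the third library, 54.3% on average, was 20.8 to 74.6% by library.

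The odds ratios rest on 180 sites and lost their calls often. For the final A, adjusted p missed the threshold with all 5 features in 1 model (2.03), peaks of 86 to 200 nt (2.26), trimmed peaks (2.54), all 3 libraries (5.74) and without each replicate in turn (1.85 to 4.85). For A or T content it missed with peaks of 86 to 200 nt (1.61), trimmed peaks (1.44), all 3 libraries (1.73) and without replicate 1 or 2, but passed without replicate 3 (range 1.52 to 2.17). For distance it missed with 1 model (0.848), peaks of 86 to 200 nt (0.889), trimmed peaks (0.990), all 3 libraries (0.991) and without each replicate in turn (0.811 to 0.984). For supplementary pairing it missed with 1 model (0.772), peaks of 86 to 200 nt (0.536), trimmed peaks (0.793), the highest score (0.651), all 3 libraries (0.850) and in a logistic regression over all 1670 matches in 3′UTRs with a stretch, with 3′UTR length and covered share as covariates (0.861), an alternative chosen after seeing the data. It was 0.533 to 1.04 without 1 replicate, passed without replicate 1, missed without replicate 2 and reversed without replicate 3. The nearby seed match was 0.693 to 7.34 without 1 replicate, past the threshold without replicate 1 and reversed without replicate 3. In the regression over all matches (n = 1670), the final A (1.49, adjusted p = 0.00368), A or T content (1.51, adjusted p = 5.8e-12) and distance (0.827, adjusted p = 4.3e-06) passed. Most alternatives had fewer sites, but with 1 model calls were lost on the same 180 sites. Some odds ratios also moved towards 1, as that of distance with trimmed peaks (0.990), while that of the final A there did not (2.54). Why calls were lost was not tested.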
